A study of Mus musculus with 20 samples.

Results

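Mitosis and chromosome segregation genes encode the proteins that bring a cell into division, attach its chromosomes to the spindle, pull the copies apart and split the cell. The set described here holds 45 named genes of the 24421 in the count tables, chosen by gene symbol from a list of textbook mitotic genes. The choice was made with earlier results of these data known. All 45 were found, and all 45 passed the filter on low counts. They were read in 20 RNA-seq libraries of bone marrow-derived macrophages (BMDM), cultured from 5 mice and treated for 48 h in 4 conditions, which the labels call LP PIC, LP 3M, LP 3M PIC and LP. The series title speaks of lipoparticles carrying single or dual adjuvants, and LP was read as the particle. LP PIC and LP 3M are then the single formulations, LP 3M PIC is the dual formulation, and LP without either is the control that all others share. The sources used here do not give what PIC and 3M stand for, their amounts, or the strain, sex and age of the mice. Every culture, LP included, grew with 30% L929-conditioned medium, a source of the macrophage growth factor CSF-1, 20% serum and 100 U/mL penicillin-streptomycin. Each mouse supplied cells to every condition, so that comparisons can also be read within a mouse.

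Bone marrow precursors multiply and mature into macrophages under CSF-1, and such cultures go on cycling while the factor is present. In resting and early G1 cells the DREAM complex represses mitotic genes, and late in the cycle, after DREAM has come apart, its MuvB core acts on the same promoter elements with B-Myb and Foxm1 to switch them on. Kinetochores then hold chromosomes to microtubules, a checkpoint delays separation until all are attached, and the anaphase-promoting complex removes securin so that separase can cut the chromosomes' cohesion. In bulk RNA, fewer dividing cells and less of these transcripts per cell cannot be told apart.

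Library totals ran from 9740528 to 23874805 counts, with the shallowest in LP of mouse 2. All 10 macrophage markers, such as Cd68 and Csf1r, averaged at least 1 CPM (the count scaled to a common library total) in each condition, with summed levels of 13946 to 20135 CPM in LP PIC, 21504 to 27186 CPM in LP 3M, 12181 to 17043 CPM in LP 3M PIC and 11863 to 19129 CPM in LP. Markers of other cells were low. The highest sums over the 20 libraries were 537 CPM for 7 neutrophil genes, nearly all of it S100a8 in LP 3M PIC, 132 CPM for 6 fibroblast genes, 46.2 CPM for 6 dendritic cell genes, 2.84 CPM for 5 T and NK cell genes, 0.411 CPM for 5 erythroid genes, 0.394 CPM for 5 B cell genes and 0.0797 CPM for 4 mast cell genes. All 5 progenitor markers were detected, and every treated library had a lower sum of them than every LP library. Kit did not fall in LP PIC, where it averaged 3.72 CPM against 3.58 CPM in LP, while the other markers averaged lower there than in LP. The sum was 4.85 to 13.5 CPM in LP PIC, 3.06 to 8.04 CPM in LP 3M, 1.67 to 4.70 CPM in LP 3M PIC and 17.8 to 45.3 CPM in LP, with Cd34 at 15.6 CPM in LP as its largest term. Unlike the sum of the mitotic genes given below, it was not lowest in LP PIC. The part of progenitors in the results was not tested.

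In LP the mitotic genes averaged between 2.76 CPM (Depdc1a) and 278 CPM (Mki67). Per kilobase of exon, the highest mean levels in LP were those of Mki67 at 27.7, Ccnb2 at 26.8 and Incenp at 26.2 CPM per kb, and the lowest was that of Depdc1a at 0.830. The order differed after treatment with PIC. Pttg1, in rank 16 in LP with 9.99 CPM per kb, had the highest level per length in LP PIC at 15.2 and in LP 3M PIC at 13.4 CPM per kb. In LP 3M the highest was Incenp at 19.9 CPM per kb. The spread over mice was smallest in LP PIC, where the median coefficient of variation of the 45 genes was 16.6%, against 25.5% in LP 3M, 27.9% in LP 3M PIC and 28.6% in LP.

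Summed over the 45 genes, mitotic transcripts made up 307, 316, 333, 327 and 303 CPM in LP PIC of mice 1 to 5. The same sum was 911, 1086, 934, 1335 and 1525 CPM in LP 3M. In LP 3M PIC it was 495, 402, 418, 520 and 313 CPM, and in LP it was 2739, 2498, 1239, 1983 and 2057 CPM. The LP PIC libraries lay close together at the bottom, at 317 ± 12.8 CPM (mean and SD, n = 5), and the LP 3M PIC libraries at 430 ± 82.0 CPM stood partly above them. LP 3M averaged 1158 ± 266 CPM and LP 2103 ± 575 CPM. LP 3M and LP overlapped, because LP of mouse 3 was lower than LP 3M of mice 4 and 5. Within each mouse the order was steadier: the sum in LP PIC was 11.2 to 26.9% of that in LP of the same mouse, in LP 3M 33.2 to 75.4%, and in LP 3M PIC 15.2 to 33.8%.

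**Figure D1:**
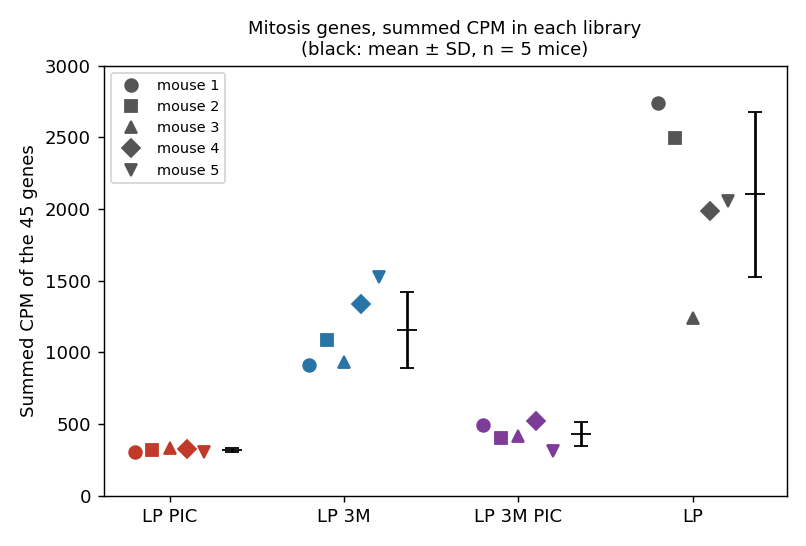
Summed CPM of the 45 mitotic genes in each library (y axis, linear), with 1 symbol per mouse, and the mean ± SD over 5 mice in black. LP PIC libraries sit between 303 and 333 CPM and LP 3M PIC libraries between 313 and 520 CPM, below every LP 3M and LP library.

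PIC had the larger effect of the single formulations. In LP PIC, 44 of the 45 genes fell relative to LP and 1, Pttg1, rose (edgeR's quasi-likelihood test, adjusted p under 0.05), where 22.7% of all tested genes were called lower and 22.7% higher. The median log2 fold change of the 45 genes was -3.15, which leaves 11.2% of the LP level, and that of all tested genes was 0.00. All 44 falls exceeded 1 on the log2 scale and 26 exceeded 3. For each of the 44, every LP PIC library lay below every LP library, a pattern held by 19.2% of tested genes, and each was lower in 5 of 5 mice (30.5% of tested genes). By role, the median log2 fold change ran from -3.78 for Depdc1a and Depdc1b to -2.25 for the 4 spindle checkpoint genes. It was -3.66 for the 6 kinesin motors (Kif11, Kif15, Kif20a, Kif23, Kif2c and Kif4), -3.44 for the mitotic kinases Plk1, Aurka and Nek2, -3.28 for the 4 spindle assembly genes, -3.09 for the 7 kinetochore and centromere genes, -2.97 for Top2a and Mki67, -2.96 for the 5 genes of anaphase and mitotic exit, -2.83 for the 3 cytokinesis genes, -2.80 for Cdk1, its cyclins and Foxm1, and -2.61 for the chromosomal passenger complex. The smallest fall was that of Incenp, at -1.56 ± 0.12 (log2, SE).

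**Figure D2:**
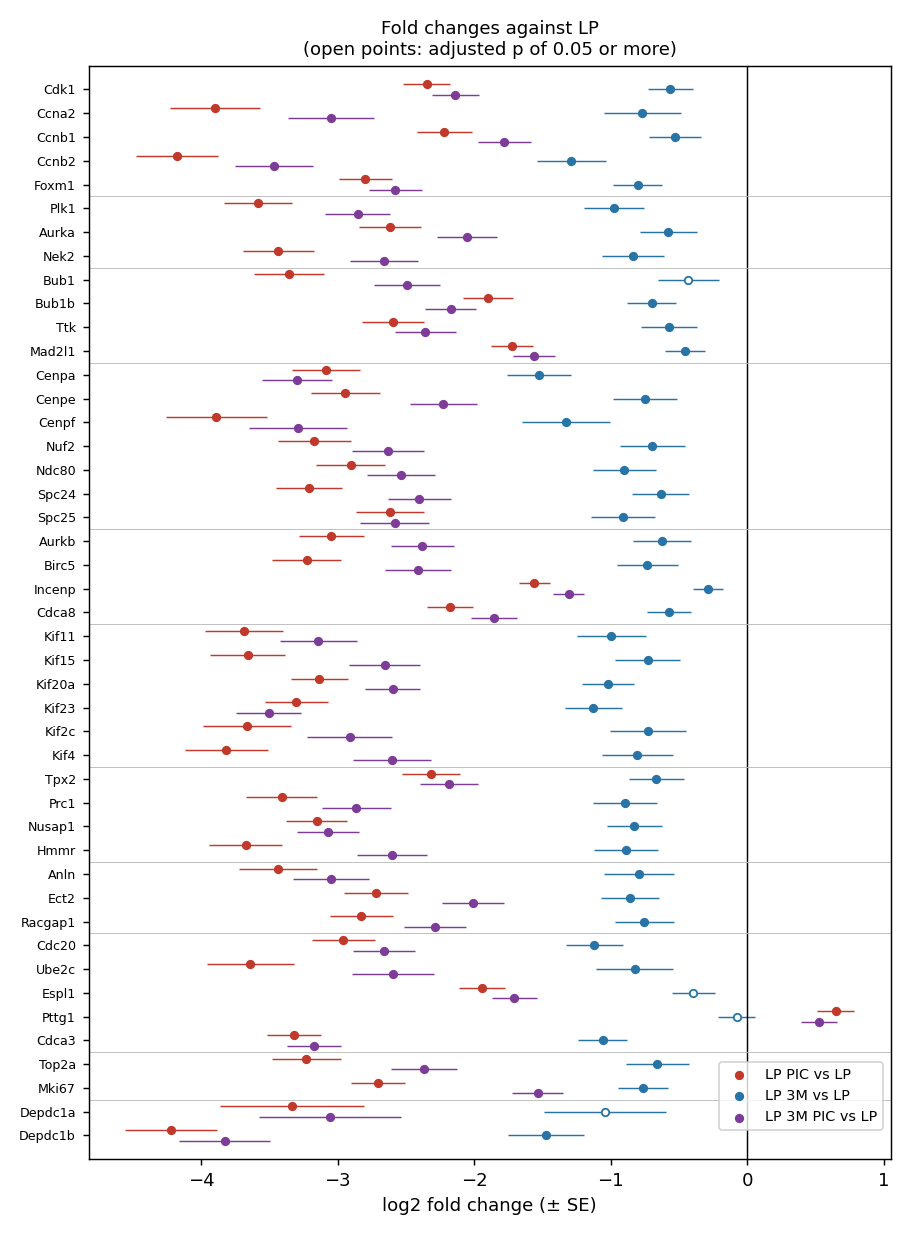
Log2 fold change (x axis, ± SE) of each mitotic gene against LP in LP PIC (red), LP 3M (blue) and LP 3M PIC (purple), with genes grouped by role between grey lines. Open points have an adjusted p of 0.05 or more. The red and purple points lie at -1.31 or below except for Pttg1, at 0.65 and 0.53, and the blue points lie between -1.53 and -0.08.

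Genes that move together this way often share promoter letters, and the 250 bases before the RefSeq gene start (GRCm38.p6) were searched in the 37 genes that RefSeq's table holds. The CHR element TTTGAA, to which DREAM and the later MuvB complexes bind, was present on either strand in 12 of 37 windows (32.4%), against 16.3% of 27025 windows of all genes. The CCAAT box, bound by NF-Y, was present in 28 of 37 (75.7%), against 34.5% of all windows, and at least 2 copies were present in 18 (48.6%), against 10.5%. Windows with a CHR element and a CCAAT box together numbered 10 (27.0%), against 5.73% of all. The E2F-type core GCGGGAA was found in 0 of 37 windows and in 3.84% of all. Anln, Birc5, Mad2l1, Ndc80, Nuf2, Nusap1 and Pttg1 had no match to any of the 3 motifs. In 15 genes the window holds exon bases of the same gene in the GENCODE annotation, which places the start elsewhere. For Cdca3 and Kif4 these are all 250 bases, and for Cdca8 they are 118. For Pttg1 they are 195 of the 250 bases, so that its window is not shown. Kif2c holds none, but its GENCODE start lies further upstream than the window. All these windows were counted in the shares above. These matches describe letters and not binding, and a link between them and the changes in level was not tested. Shown here are 4 windows that hold both elements and no such exon bases, of genes described below, with matches in capitals (TTTGAA or TTCAAA for CHR, CCAAT or ATTGG for the CCAAT box), each written 5′ to 3′ on the gene's own strand. They are Mki67 (chr7:135716380-135716629, minus strand), Top2a (chr11:99024190-99024439, minus), Ccnb2 (chr9:70421555-70421804, minus) and Kif11 (chr19:37376132-37376381, plus).
Mki67: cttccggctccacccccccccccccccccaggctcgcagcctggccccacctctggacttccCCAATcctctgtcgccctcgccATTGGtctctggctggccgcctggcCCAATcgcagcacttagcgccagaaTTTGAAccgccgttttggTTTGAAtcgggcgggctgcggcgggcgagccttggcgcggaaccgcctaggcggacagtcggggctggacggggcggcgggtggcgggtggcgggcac
Top2a: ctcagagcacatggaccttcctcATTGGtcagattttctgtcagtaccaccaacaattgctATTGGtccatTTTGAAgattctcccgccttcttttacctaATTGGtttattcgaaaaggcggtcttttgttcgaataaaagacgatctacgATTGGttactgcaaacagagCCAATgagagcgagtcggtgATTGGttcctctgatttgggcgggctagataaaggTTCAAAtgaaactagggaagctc
Ccnb2: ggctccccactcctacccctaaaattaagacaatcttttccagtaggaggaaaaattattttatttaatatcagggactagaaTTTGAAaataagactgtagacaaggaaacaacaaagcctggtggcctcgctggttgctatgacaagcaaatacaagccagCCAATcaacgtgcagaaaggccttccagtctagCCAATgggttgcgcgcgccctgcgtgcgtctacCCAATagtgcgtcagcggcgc
Kif11: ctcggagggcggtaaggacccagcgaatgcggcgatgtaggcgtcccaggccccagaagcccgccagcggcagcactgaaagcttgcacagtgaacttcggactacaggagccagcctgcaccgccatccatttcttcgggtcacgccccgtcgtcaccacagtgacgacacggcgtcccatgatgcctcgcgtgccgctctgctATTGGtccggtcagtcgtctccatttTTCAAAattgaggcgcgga
Mki67 and Top2a hold 2 CHR elements each, Ccnb2 and Kif11 hold 1, and the CCAAT box occurs 6 times in Top2a, 3 times in Mki67 and Ccnb2 and once in Kif11.

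Cdk1, the kinase that drives entry into mitosis (chromosome 10, 69335146 to 69352938, minus strand, GRCm38), was at 9.94, 11.7, 12.2, 10.4 and 12.8 CPM in LP PIC of mice 1 to 5. It was at 36.1, 40.5, 27.5, 41.8 and 41.7 CPM in LP 3M and at 14.2, 12.9, 11.1, 15.5 and 8.97 CPM in LP 3M PIC, against 80.2, 66.0, 37.3, 56.5 and 60.7 CPM in LP. LP PIC and LP 3M PIC overlapped with each other and lay below all other libraries, while LP 3M reached above LP of mouse 3. The log2 fold change was -2.35 ± 0.17 in LP PIC (edgeR adjusted p = 7.27e-09), -0.56 ± 0.16 in LP 3M (edgeR adjusted p = 0.0104) and -2.14 ± 0.17 in LP 3M PIC (edgeR adjusted p = 5.54e-09). Its cyclins differed among themselves. The log2 fold changes in LP PIC were -3.90 for Ccna2, -4.18 for Ccnb2 and -2.22 for Ccnb1. Foxm1, a transcription factor of late cell cycle genes, was at 6.18, 7.13, 8.06, 5.25 and 6.91 CPM in LP PIC and 20.8, 21.3, 20.3, 31.6 and 34.1 CPM in LP 3M. It was at 8.35, 7.40, 6.94, 8.95 and 5.47 CPM in LP 3M PIC, against 60.7, 54.5, 29.2, 45.2 and 52.1 CPM in LP. No treated library reached the LP libraries of mice 1, 2, 4 and 5. Foxm1 fell in each treated condition, with log2 fold changes of -2.80 in LP PIC, -0.80 with LP 3M and -2.58 in LP 3M PIC.

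Plk1, a kinase of centrosomes, kinetochores and cytokinesis (chromosome 7, 122159439 to 122169873, plus strand), had 2.45, 3.58, 3.99, 2.91 and 2.36 CPM in LP PIC and 13.0, 15.4, 14.9, 22.6 and 23.7 CPM in LP 3M. It had 5.20, 4.96, 4.23, 6.90 and 2.90 CPM in LP 3M PIC and 49.7, 46.1, 22.6, 38.1 and 34.5 CPM in LP. The LP 3M PIC libraries of mice 1 to 4 were above every LP PIC library, and that of mouse 5 was not. Plk1 fell in LP 3M PIC less than in LP PIC, and the difference between these conditions was 0.73 ± 0.25 on the log2 scale (edgeR adjusted p = 0.0229, higher in LP 3M PIC in 5 of 5 mice). Aurka, the spindle pole kinase, and Nek2, which separates centrosomes, fell in each treated condition, with log2 fold changes of -2.62 and -3.44 in LP PIC, -0.58 and -0.84 in LP 3M and -2.06 and -2.66 in LP 3M PIC.

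Among the spindle checkpoint genes, Bub1b (BubR1) alone had a lower mean level in LP 3M PIC than in LP PIC. It was at 11.1, 12.3, 10.7, 12.5 and 12.5 CPM in LP PIC, at 18.5, 23.5, 21.5, 32.9 and 33.4 CPM in LP 3M, at 10.6, 7.48, 7.49, 12.5 and 8.33 CPM in LP 3M PIC and at 53.7, 55.5, 28.1, 43.6 and 47.4 CPM in LP. Its level in LP 3M PIC relative to LP PIC had a log2 fold change of -0.27 ± 0.19 (edgeR adjusted p = 0.238, lower in 4 of 5 mice). Bub1, its partner kinase at the kinetochore, was at 5.85, 5.60, 4.39, 5.28 and 3.55 CPM in LP 3M PIC, against 2.75, 2.55, 3.15, 2.60 and 3.23 CPM in LP PIC. These groups did not overlap, and Bub1 rose in LP 3M PIC relative to LP PIC by 0.87 ± 0.25 on the log2 scale (edgeR adjusted p = 0.00997). In LP 3M, Bub1 was at 14.4, 23.7, 15.8, 23.4 and 26.8 CPM, against 40.6, 44.4, 15.0, 24.0 and 28.4 CPM in LP. It was lower in 4 of 5 mice and did not pass the test (log2 fold change -0.43 ± 0.22, edgeR adjusted p = 0.135). Ttk and Mad2l1, which build the checkpoint signal, fell in LP PIC, with log2 fold changes of -2.60 and -1.73, and in LP 3M PIC, with -2.36 and -1.56.

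Cenpa, the histone H3 variant that marks centromeres (chromosome 5, 30666777 to 30674830, plus strand), had the largest fall of the 45 genes in LP 3M. It was at 3.51, 4.32, 4.38, 3.40 and 3.46 CPM in LP PIC and at 6.99, 9.86, 8.53, 12.5 and 16.1 CPM in LP 3M. In LP 3M PIC it was at 3.99, 2.86, 2.79, 3.71 and 2.26 CPM, against 44.3, 43.9, 16.2, 31.3 and 32.8 CPM in LP. Every treated library was below every LP library. The log2 fold change was -3.09 ± 0.25 in LP PIC (edgeR adjusted p = 1.57e-08), -1.53 ± 0.23 in LP 3M (edgeR adjusted p = 4.69e-05) and -3.30 ± 0.26 in LP 3M PIC (edgeR adjusted p = 3.36e-09). Cenpe, a kinesin that carries chromosomes at the kinetochore, was at 5.67, 7.47, 6.57, 6.79 and 4.84 CPM in LP PIC and 22.6, 24.4, 24.1, 31.3 and 35.6 CPM in LP 3M. It was at 12.4, 9.96, 8.37, 13.4 and 4.87 CPM in LP 3M PIC, against 71.0, 60.5, 29.5, 44.5 and 45.4 CPM in LP. Its LP 3M libraries reached above LP of mouse 3 alone, and Cenpe fell in each treated condition. The 4 subunits of the NDC80 complex, which grips microtubules, fell in LP PIC, with log2 fold changes of -2.90 for Ndc80, -3.17 for Nuf2, -3.21 for Spc24 and -2.62 for Spc25. In LP 3M PIC relative to LP PIC, Spc24 rose by 0.81 ± 0.25 (edgeR adjusted p = 0.014), and the log2 fold changes of Ndc80, Nuf2 and Spc25, 0.37, 0.54 and 0.04, did not pass.

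Incenp, the scaffold of the chromosomal passenger complex (chromosome 19, 9872296 to 9899551, minus strand), kept the most of its LP level among the 44 genes that fell. It was at 36.7, 34.3, 40.3, 37.5 and 37.5 CPM in LP PIC and at 80.8, 84.1, 73.1, 94.8 and 98.2 CPM in LP 3M. It was at 46.5, 49.3, 34.6, 43.8 and 36.6 CPM in LP 3M PIC, against 139, 120, 85.4, 114 and 110 CPM in LP. The other members of the complex fell further in LP PIC, with log2 fold changes of -3.05 for the kinase Aurkb, -3.23 for Birc5 (survivin) and -2.18 for Cdca8 (borealin), against -1.56 for Incenp. In LP 3M, Incenp had the smallest fall that passed the test, -0.29 ± 0.11 (edgeR adjusted p = 0.0496, lower in 5 of 5 mice).

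The kinesin motors and the spindle assembly and cytokinesis genes all fell in LP PIC and in LP 3M PIC. Kif20a, a midzone motor, was at 5.63, 6.78, 6.70, 4.81 and 5.99 CPM in LP PIC and 19.6, 21.7, 19.1, 30.0 and 33.8 CPM in LP 3M. It was at 9.10, 8.68, 7.89, 9.10 and 6.49 CPM in LP 3M PIC, against 70.8, 68.9, 29.5, 50.6 and 52.8 CPM in LP. Its LP PIC and LP 3M PIC libraries lay below all others, and LP 3M of mice 4 and 5 was above LP of mouse 3. Kif11, which pushes spindle poles apart, had log2 fold changes of -3.69 in LP PIC and -3.14 in LP 3M PIC. Tpx2, which activates Aurora A on microtubules, was at 16.5, 13.0, 14.2, 15.7 and 10.2 CPM in LP PIC and 33.9, 40.9, 32.3, 47.5 and 55.7 CPM in LP 3M. It was at 19.3, 16.1, 12.4, 15.1 and 9.70 CPM in LP 3M PIC, against 95.2, 85.9, 44.7, 63.8 and 70.9 CPM in LP. The LP PIC and LP 3M PIC libraries of Tpx2 overlapped, with mouse 5 lowest in both. Racgap1, a subunit of centralspindlin, was at 10.4, 9.20, 12.0, 9.39 and 9.28 CPM in LP PIC and 32.3, 36.3, 31.0, 53.6 and 49.9 CPM in LP 3M. It was at 14.7, 13.3, 13.8, 19.7 and 8.16 CPM in LP 3M PIC, against 92.6, 92.6, 41.5, 77.1 and 67.2 CPM in LP. Mouse 5 was the only one in which Racgap1 was lower in LP 3M PIC than in LP PIC. Kif20a, Kif11, Tpx2 and Racgap1 fell in each treated condition. Kif23, the motor subunit of centralspindlin, was the only kinesin whose level was lower in LP 3M PIC than in LP PIC, at 4.69 ± 1.08 against 5.65 ± 1.16 CPM, which did not pass the test (log2 fold change -0.20 ± 0.23, edgeR adjusted p = 0.497).

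Pttg1, securin (ENSMUSG00000020415, chromosome 11, 43420250 to 43426251, minus strand), moved the other way. It was at 29.2, 24.5, 30.2, 38.5 and 29.9 CPM in LP PIC of mice 1 to 5 and at 23.3, 23.7, 33.4, 25.3 and 28.2 CPM in LP 3M PIC. It was at 14.0, 16.7, 20.9, 20.4 and 16.2 CPM in LP 3M and at 17.6, 18.4, 21.3, 22.9 and 19.7 CPM in LP. Every LP PIC and LP 3M PIC library was above every LP library. Pttg1 rose by 0.65 ± 0.13 on the log2 scale in LP PIC (edgeR adjusted p = 0.000579) and by 0.53 ± 0.13 in LP 3M PIC (edgeR adjusted p = 0.00208), in 5 of 5 mice each. In LP 3M its log2 fold change was -0.08 ± 0.13 (edgeR adjusted p = 0.681). Securin holds separase inactive, and the transcript of separase, Espl1, fell while that of securin rose. Espl1 was at 8.93, 6.87, 6.39, 7.81 and 5.93 CPM in LP PIC and at 8.72, 7.78, 9.33, 8.68 and 5.98 CPM in LP 3M PIC, against 34.8, 33.0, 18.0, 27.2 and 30.6 CPM in LP. The log2 fold change of Espl1 was -1.94 ± 0.17 in LP PIC (edgeR adjusted p = 2.92e-08) and -1.71 ± 0.17 in LP 3M PIC (edgeR adjusted p = 5.39e-08). Cdc20 and Ube2c, which activate and serve the anaphase-promoting complex that marks securin for degradation, fell in LP PIC, with log2 fold changes of -2.96 and -3.64, and in LP 3M PIC, with -2.66 and -2.60. That degradation acts on the protein, which these RNA counts do not measure.

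Mki67, the Ki-67 protein of the surface of mitotic chromosomes and a routine proliferation marker (chromosome 7, 135689784 to 135716361, minus strand), had 40.1, 41.2, 37.9, 46.3 and 40.3 CPM in LP PIC and 118, 130, 125, 158 and 227 CPM in LP 3M. It had 96.6, 65.7, 94.0, 108 and 78.1 CPM in LP 3M PIC, against 366, 309, 161, 266 and 290 CPM in LP. The LP PIC libraries were all below the LP 3M PIC libraries, which were all below those of LP 3M. Top2a, which untangles sister DNA, was at 19.2, 20.5, 21.1, 17.7 and 15.7 CPM in LP PIC, at 82.0, 99.6, 88.0, 129 and 138 CPM in LP 3M, at 37.2, 32.3, 28.6, 47.5 and 16.9 CPM in LP 3M PIC and at 240, 225, 102, 174 and 175 CPM in LP. Depdc1b had the largest fall of the 45 genes in LP PIC (log2 fold change -4.22 ± 0.34) and in LP 3M PIC (-3.83 ± 0.33). It was at 0.127, 0.173, 0.263, 0.309 and 0.519 CPM in LP PIC and 1.38, 1.50, 1.41, 1.87 and 2.66 CPM in LP 3M. It was at 0.232, 0.385, 0.638, 0.314 and 0.214 CPM in LP 3M PIC, against 7.49, 5.95, 3.44, 5.09 and 4.60 CPM in LP. Every treated library was below every LP library. With 3 to 9 counts per library in LP PIC and LP 3M PIC, its level there is close to the floor that 3 counts set, 0.127 to 0.239 CPM in these libraries.

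**Figure D3:**
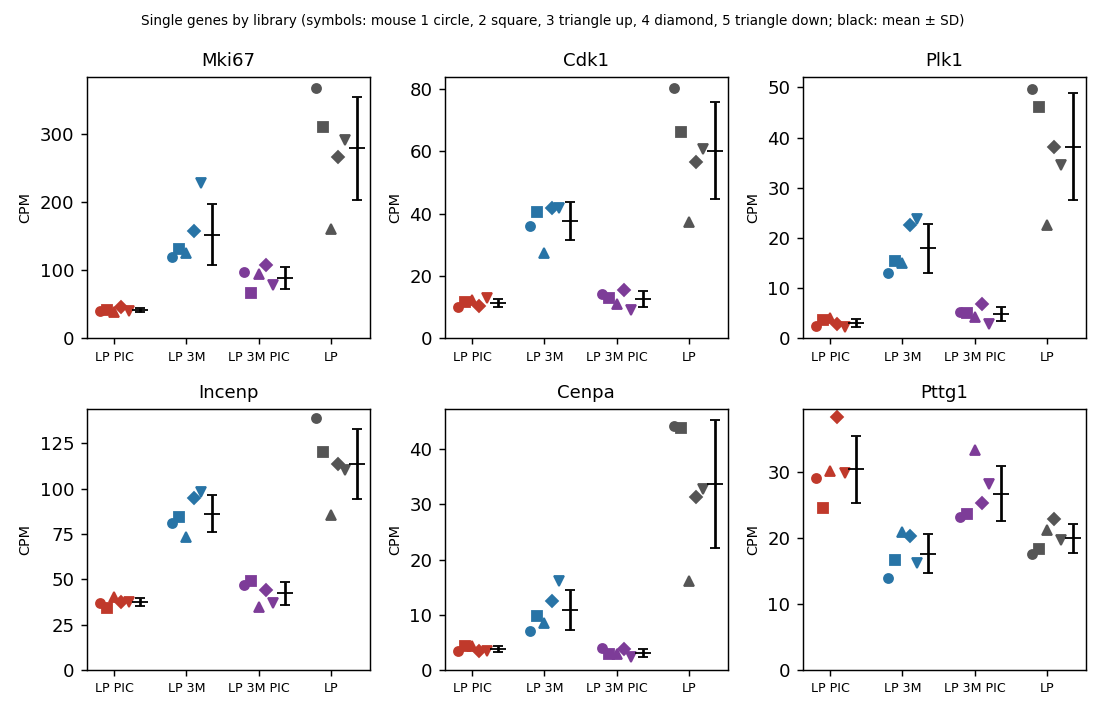
CPM (linear y axis) of 6 mitotic genes in each library, with 1 symbol per mouse and the mean ± SD over 5 mice in black. Mki67 in LP 3M PIC sits at 65.7 to 108 CPM, between LP PIC at 37.9 to 46.3 CPM and LP 3M at 118 to 227 CPM, and Pttg1 is highest in LP PIC and LP 3M PIC.

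3M alone lowered the same genes by less. In LP 3M, 41 of the 45 genes fell relative to LP, where 19.5% of all tested genes were called lower, and the median log2 fold change was -0.77, which leaves 58.8% of the LP level (all tested genes -0.01). No gene of the set was called higher by edgeR or by DESeq2, where 20.0% of tested genes were called higher by edgeR, and none had an unadjusted p under 0.05 in that direction. The 4 that did not pass were Bub1 and Pttg1, given above, Espl1 (log2 fold change -0.39 ± 0.16, edgeR adjusted p = 0.057, or 0.0422 with the mouse as a block) and Depdc1a (-1.04 ± 0.45, edgeR adjusted p = 0.0721, or 0.0343 with the block). Ccna2 passed at 0.0395 and not with the block, at 0.055. Depdc1a was the least abundant of the set, with 18 to 42 counts per library in LP 3M and 20 to 86 in LP. The 8 called genes that fell by at least 1 on the log2 scale included Cenpa, Depdc1b at -1.48, Cenpf at -1.33 and Ccnb2 at -1.29.

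These falls were steadier within mice than between groups. Per-mouse differences and group ranges used CPM from library totals alone, without the scaling factors of the main fit. Fitted on that scale, the median log2 fold change in LP 3M was -0.88 for the 45 genes and -0.12 for all tested genes. Of the 45 genes, 44 were lower in LP 3M than in LP in 5 of 5 mice, against 37.2% of tested genes, but for 4 alone (Ccnb2, Cenpa, Cdc20 and Depdc1b) did the groups not overlap, against 19.4%. The median log2 difference over the 45 genes was -1.69, -1.24, -0.42, -0.56 and -0.50 in mice 1 to 5, so that mice 1 and 2 moved furthest. The number of genes called lower was 17 without mouse 1 and 21 without mouse 2. Over all tested genes that number also dropped, from 2368 to 1662 without mouse 1 and 1848 without mouse 2. PIC and the dual formulation did not depend on any mouse in this way, and the 44 falls remained 44 in number without each mouse in turn.

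**Figure D4:**
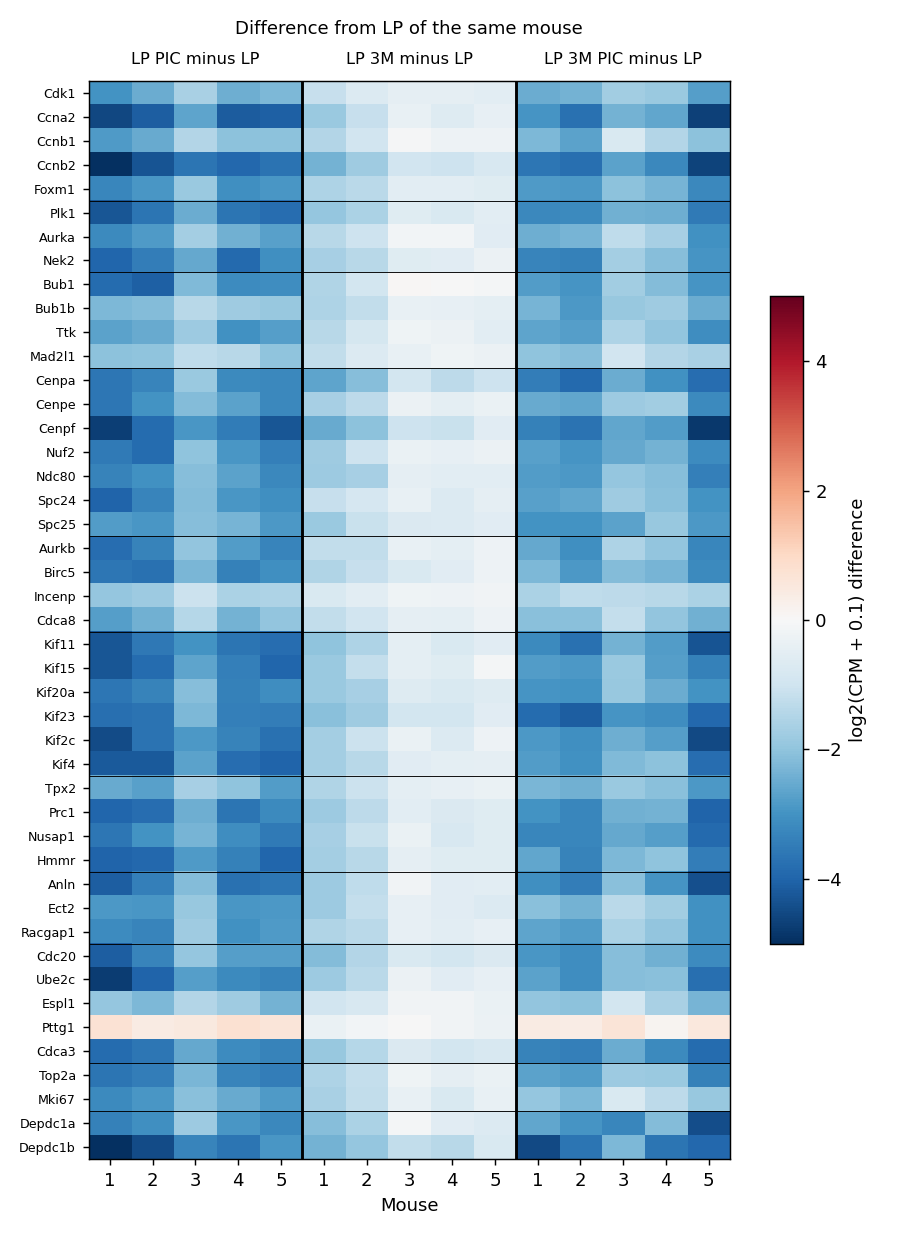
Difference in log2(CPM + 0.1) from LP of the same mouse (colour) for each mitotic gene (rows, by role) and mouse (columns 1 to 5), in LP PIC (left), LP 3M (middle) and LP 3M PIC (right). Blue fills all rows of LP PIC and LP 3M PIC except that of Pttg1, and in LP 3M mice 1 and 2, with medians of -1.69 and -1.24, are darker than mice 3 to 5.

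LP 3M stood above LP PIC throughout. Of the 45 genes, 44 were called higher in LP 3M than in LP PIC, against 24.4% of tested genes, with every LP 3M library above every LP PIC library (14.0% of tested genes), and Pttg1 was called lower (22.7% of tested genes). The median log2 fold change was 2.26, and the largest, that of Ccna2, was 3.14 ± 0.32 (edgeR adjusted p = 6.54e-07). Ccna2 was at 21.2, 33.3, 28.6, 40.1 and 48.8 CPM in LP 3M, against 3.22, 4.19, 5.87, 3.35 and 3.74 CPM in LP PIC.

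In the dual formulation the genes stayed near the PIC level. In LP 3M PIC, 44 of the 45 genes fell relative to LP (30.6% of tested genes were called lower) and Pttg1 rose (31.7% were called higher), with a median log2 fold change of -2.58 and 16.7% of the LP level left. All 44 did so with groups that did not overlap, against 27.9% of tested genes. Relative to LP 3M, 44 fell and Pttg1 rose, with a median log2 fold change of -1.77, where 21.0% of tested genes were called lower and 20.5% higher. The mean levels had the order LP PIC, LP 3M PIC, LP 3M, LP from lowest to highest in 40 of the 45 genes, and LP 3M PIC came lowest with LP PIC next in 4, which were Bub1b, Cenpa, Kif23 and Spc25. Pttg1 also had a lower mean in LP 3M PIC, 26.8 CPM, than in LP PIC, 30.4 CPM, with LP and LP 3M below both.

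Relative to LP PIC alone, the dual formulation left a part of the set higher. In LP 3M PIC, 16 genes were called higher than in LP PIC, where 23.1% of tested genes were, so that the share of 16 in 45 was not far from that of all genes, and the median log2 fold change was 0.54 (all tested genes 0.00). None was called lower by edgeR or DESeq2, where edgeR called 21.4% of tested genes lower, and none had an unadjusted p under 0.05 in that direction. The 16 were spread over the roles. They were Ccna2, the kinases Plk1 and Nek2, Bub1, Cenpe and Spc24 at the kinetochore, Aurkb and Birc5 of the passenger complex, the motors Kif4, Kif15 and Kif20a, Hmmr, Ect2, Ube2c, Top2a and Mki67. The largest were Kif4, a motor on chromosome arms, at 1.21 ± 0.31 (edgeR adjusted p = 0.00366) and Mki67 at 1.17 ± 0.19 (edgeR adjusted p = 7.85e-05), followed by Hmmr, a spindle protein and hyaluronan receptor, at 1.07 ± 0.27 (edgeR adjusted p = 0.00348). Only for Bub1 and Mki67 did the groups not overlap, against 10.2% of tested genes. With the mouse as a block 13 were called, without Ccna2 (edgeR adjusted p = 0.0807), Aurkb (0.0604) and Kif20a (0.0573). Mouse 5 went the other way, with 30 of the 45 genes lower in LP 3M PIC and a median difference of -0.18, against 0.79, 0.30, 0.28 and 0.74 in mice 1 to 4. The count was 6 without mouse 1, 8 without mouse 2 and 5 without mouse 4. Over all tested genes it was 2131 of 12138, 2359 of 12119 and 2143 of 12150 without these mice, against 2805 of 12132 with every mouse.

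The effects of PIC and 3M did not add up on the log2 scale. The interaction, which is the change from adding PIC in the presence of 3M minus the change from adding PIC without it, was called above 0 for 34 of the 45 genes, against 3.82% of tested genes, with a median of 1.31 (all tested genes 0.00). PIC thus lowered these genes by a smaller factor when 3M was present, which assumes equal amounts of each agent in the single and dual formulations. No gene of the set was called below 0 by edgeR or DESeq2, where edgeR called 4.62% of tested genes below 0, nor had an unadjusted p under 0.05 there. The largest interactions were those of Kif4 at 2.02 ± 0.40 (edgeR adjusted p = 0.00565), Ccnb2 at 2.00 ± 0.40 (edgeR adjusted p = 0.00544), Hmmr at 1.96 ± 0.36 (edgeR adjusted p = 0.00286) and Mki67 at 1.94 ± 0.26 (edgeR adjusted p = 0.000208). The log2 fold change of Mki67 was -0.77 in LP 3M PIC against LP 3M and -2.71 in LP PIC against LP. The 11 not called were Bub1b, Ttk and Mad2l1 of the checkpoint, Spc25 (edgeR adjusted p = 0.103, or 0.0395 with the mouse as a block), Kif23, Tpx2, Nusap1, Anln, Espl1, Pttg1 and Depdc1a. Pttg1 was near additive, at -0.05 ± 0.19. The per-mouse medians were 2.53, 1.66, 0.67, 1.32 and 0.28 in mice 1 to 5, all above 0, and 32 genes were above 0 in 5 of 5 mice, against 17.2% of tested genes. The count of genes called above 0 was 2 without mouse 1, 5 without mouse 2 and 7 without mouse 4. Over all tested genes the count called above 0 also dropped, from 463 to 60, 105 and 88 in that order.

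Genes of 4 other cell cycle lists were read beside the 45. Of all tested genes, 22.7% were called lower in LP PIC, 19.5% with LP 3M and 30.6% in LP 3M PIC. Of 76 other mitosis genes, 72 fell and 1 rose in LP PIC, 43 fell and 4 rose in LP 3M, and 67 fell and 3 rose in LP 3M PIC, with median log2 fold changes of -2.19, -0.59 and -1.94 in that order. Of 39 DNA replication genes, all 39 fell in LP PIC (median -1.65) and 36 in LP 3M PIC (median -1.35), and 8 in LP 3M (median -0.22), a share near that of all genes. Pcna, the replication clamp, averaged 139 ± 9.24 CPM in LP PIC, 232 ± 28.6 CPM in LP 3M, 119 ± 5.48 CPM in LP 3M PIC and 466 ± 120 CPM in LP. Of 20 G1 cyclins, kinases and inhibitors, 11 fell in LP PIC (median -0.59), 6 fell and 1 rose in LP 3M (median -0.18), and 9 fell and 3 rose in LP 3M PIC (median -0.31). Ccnd1, the D cyclin that answers growth factors, fell in each treated condition, with log2 fold changes of -3.59 in LP PIC, -1.58 with LP 3M and -4.62 in LP 3M PIC. Cdkn1a, the inhibitor p21, averaged 373 ± 108 CPM in LP PIC, 231 ± 25.0 CPM in LP 3M, 334 ± 34.9 CPM in LP 3M PIC and 311 ± 59.8 CPM in LP, and passed the test in none of these comparisons with LP. Another inhibitor, Cdkn2b, rose in LP 3M PIC by 1.99 ± 0.38 on the log2 scale (edgeR adjusted p = 0.00014). Cdkn2b averaged 6.4 ± 3.5 CPM there, against 1.7 ± 1.2 CPM in LP. Of 20 E2F and DREAM regulators, 13 fell and 1 rose in LP PIC (median -0.52), 8 fell and 1 rose in LP 3M (median -0.23), and 13 fell and 2 rose in LP 3M PIC (median -0.51). The gene that rose in all 3 was E2f4, a repressive E2F of the DREAM complex, by 0.31 ± 0.06 on the log2 scale in LP PIC, 0.40 ± 0.06 with LP 3M and 0.62 ± 0.06 in LP 3M PIC (edgeR adjusted p at most 0.000566). The differences between lists were not tested.

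**Figure D5:**
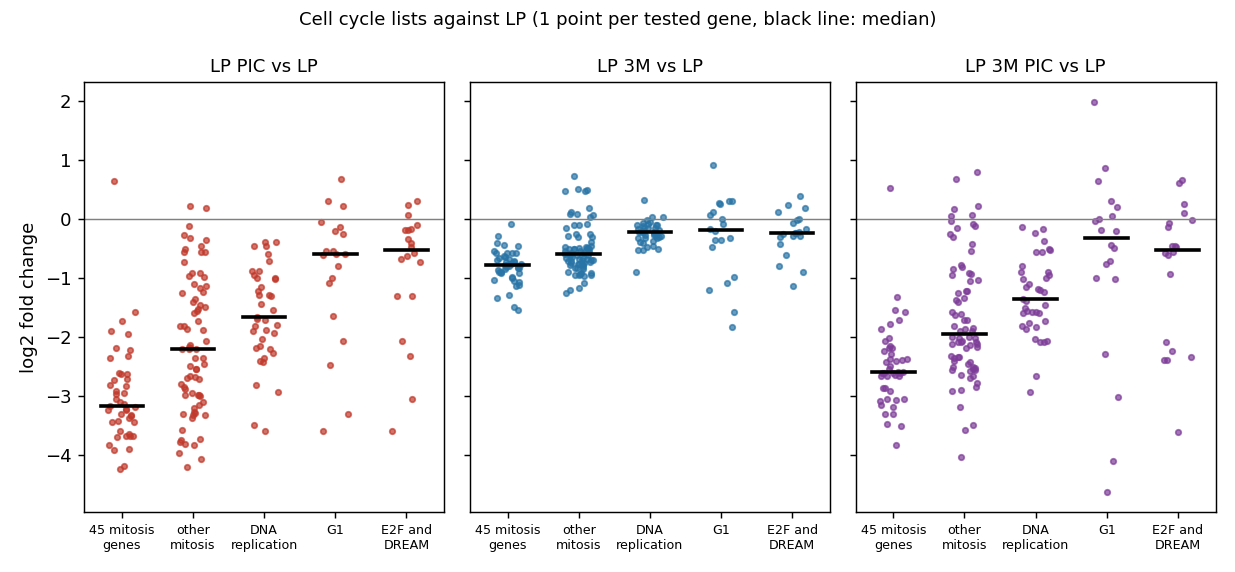
Log2 fold change against LP (y axis) of each tested gene of the 45 mitotic genes and 4 other cell cycle lists, in LP PIC (left), LP 3M (middle) and LP 3M PIC (right), with the list's median as a black line. In LP PIC the medians are -3.15 for the 45 genes, -2.19 for other mitosis genes, -1.65 for DNA replication, -0.59 for G1 genes and -0.52 for E2F and DREAM regulators.

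The most abundant genes of the other mitosis list were the tubulins Tubb5, Tuba1b and Tubb4b, and all 3 were called higher in LP 3M, where 20.0% of tested genes were. Tubb5, a beta-tubulin of the spindle and of interphase microtubules, averaged 295 ± 23.3 CPM in LP PIC, 1193 ± 246 CPM in LP 3M, 755 ± 227 CPM in LP 3M PIC and 780 ± 152 CPM in LP. Its log2 fold change was -1.35 ± 0.20 in LP PIC (edgeR adjusted p = 1.69e-05) and 0.73 ± 0.19 in LP 3M (edgeR adjusted p = 0.00548), and that in LP 3M PIC, 0.08 ± 0.19, did not pass (edgeR adjusted p = 0.744). Tuba1b and Tubb4b likewise fell in LP PIC, with log2 fold changes of -1.16 and -1.13, and rose in LP 3M, with 0.48 each. Tubulin genes resemble each other closely, so that reads may be split among them.

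Some of the 45 counts share sequence with other genes. The transcripts of Ccnb1 and Depdc1a match processed pseudogenes over 1287 and 2412 bases at 99.2% and 99.7% identity, and shorter or less alike copies exist for Cdc20, Cenpe, Mad2l1, Ndc80, Plk1, Prc1, Racgap1, Ube2c and Kif2c, so that their levels are less certain. Exons of Ccna2, Kif20a, Kif4, Prc1, Nusap1, Cdc20, Ube2c and Cdca8 overlap a counted gene on the opposite strand. The transcript of Nek2 matches an antisense gene that was not counted, on the opposite strand, over 298 bases at 100% identity. The libraries are stranded, and no source used here gives the strand setting of the counting. No such copy or overlap was found for Pttg1.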

How the data were processed

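Gene counts were measured by RNA-seq in 20 libraries of 5 mice under 4 conditions. The authors deposited raw counts per gene symbol, and per the submitters' processing notes they used genome build GRCm38 and the tools STAR 2.7.11b, FastQC 0.11.1, DESeq2 1.44.0 and HTSeq 0.13.5. Entries that name no gene, 5.94 to 8.58% of reads outside genes and 1.14 to 1.90% ambiguous, were left out of library totals and tests.

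CPM were computed here from library totals, and per-mouse differences as log2(CPM + 0.1). Fold changes come from edgeR 4.0.16 in R 4.3.3, with TMM factors of 0.945 to 1.07, genes kept by filterByExpr (minimum count 10, minimum total 15; 12132 genes), and the two-sided quasi-likelihood test on all libraries with 1 mean per condition. P-values were adjusted after Benjamini and Hochberg over every gene tested and called under 0.05. The SE of a fold change is its size over the root of its F statistic. The procedure was tested on simulated counts with no mouse effect and with genes changed in LP PIC alone. That test does not cover pairing by mouse. Coordinates and exon lengths come from GENCODE M21, promoter windows from RefSeq. No pair of libraries held duplicate counts. Floors of 3 counts cover counting error only.

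The labels' mouse ids pair the samples: deviations from the condition means correlated with a median r of 0.398 (0.137 to 0.541) in the 30 pairs of libraries from the same mouse and -0.152 (-0.401 to 0.377) in the 120 pairs from different mice. The blocked fit is given beside a result where it changes a call.

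The genes and lists were chosen with earlier results of these data known. Values in every library are given for the most abundant gene of each role, for Cdk1, Foxm1, Mki67 and Plk1 and for the largest and smallest change against LP, and genes that went against the rest or did not pass are named with their values. Values in every library of other genes, such as Ccna2 and Top2a, were chosen after they were seen, as were the order of mean levels and the windows shown. From each other list the rule names the 3 most abundant genes and the called gene furthest against the list, of which a part is given. The alternatives were DESeq2 1.42.0, its size factors in edgeR, plain library totals, no low-count filter, the mouse as a block, the compared conditions alone, and leaving out each mouse and each of 3 libraries.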

Additional observations from a re-analysis of the deposited data

Results flagged for a closer look

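The change made by PIC differed with and without 3M in 11 of the 16 genes whose values were followed individually, where 3.82% of all tested genes were called above 0. The 16 genes were chosen in part for their level or the size of their change. With a mouse left out, 26 of their interaction values lost the call. The interaction on the log2 scale was 0.78 for Cdk1, 1.71 for Plk1, 1.47 for Cenpe, 0.54 for Incenp, 1.56 for Kif20a, 1.29 for Racgap1, 1.94 for Mki67, 1.87 for Depdc1b, 1.02 for Foxm1, 1.31 for Cenpa and 1.30 for Bub1, with edgeR adjusted p-values from 0.000208 (Mki67) to 0.0495 (Cdk1). No library stood apart by Dixon's criterion in the 68 groups of 5 libraries tested, a criterion that chance meets in about 1 of 20 groups.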

How the results depend on the processing

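Counts of called genes and median log2 fold changes of the set were compared with the values reported. A count kept if it was within 1.5 times of the value reported. A median kept if it held its sign and moved by less than the SD of the per-mouse medians. Under the alternatives 283 results kept and 8 did not, all of these being counts with a mouse left out. In LP 3M against LP the count of genes called lower was 17 without mouse 1 and 21 without mouse 2, and ran from 17 to 42 over the 5 mice left out. In LP 3M PIC against LP PIC the count called higher was 6, 8 and 5 without mice 1, 2 and 4, in a range of 5 to 23, and for the interaction it was 2, 5 and 7, in a range of 2 to 38. Over all tested genes the same counts also dropped without those mice. Among the 16 genes followed individually 1472 values kept direction and side of the threshold, 58 lost the call, 18 gained it and 2 reversed, none of them called: Depdc1a in LP 3M PIC against LP PIC was -0.033 without mouse 1, in a range up to 0.56 without mouse 5, and the interaction of Pttg1 was 0.085 without mouse 4, in a range from -0.14 without the LP 3M PIC library of mouse 3. Of the other 29 genes, Spc25 and Nusap1, neither called, also turned direction in LP 3M PIC against LP PIC, at 0.04 and 0.08 in the values reported and down to -0.12 and -0.03 under an alternative. The cause was not tested. With the mouse as a block the counts were 42 called lower in LP 3M, 13 called higher in LP 3M PIC against LP PIC and 35 for the interaction, and no call changed beyond those given beside the results. Scaling by library totals moved the median of all genes in LP 3M against LP to -0.12 and that of the 45 genes to -0.88, and turned the all-gene calls there to 1686 higher and 3566 lower, from 2422 and 2368. The interaction was not refitted on the compared conditions alone, since it uses all 4. Depth limits Depdc1a and Depdc1b, at 0 to 11 counts per library in LP PIC and LP 3M PIC.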
